A study of Mus musculus with 2 samples.

Results

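Neat1 and Malat1 are a pair of long noncoding RNA genes whose transcripts stay in the nucleus. They were chosen by name, through their Ensembl gene IDs and GENCODE M21 symbols, and are 2 of the 55487 genes in the count table. RNA was sequenced from sorted small peritoneal macrophages. The donors were male SWISS mice (outbred, 5 weeks of age) with endotoxemia from 20 mg/kg intraperitoneal lipopolysaccharide (LPS) of Escherichia coli. The LPS library came from the pooled cells of 7 mice. The LPS+LCC-12 library came from the pooled cells of 8 mice given an intraperitoneal dose of 0.3 mg/kg LCC-12, a compound known to bind mitochondrial copper, with a delay of 6 h from LPS. At that same 6 h point every mouse had 30 mL/kg of subcutaneous saline, and cells were taken at 22 h, so both groups carry LPS and no group without LPS was analysed here. Each group is a single library, so nothing could be tested: every difference below is between these 2 libraries and has no replicate check.

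Neat1 RNA is the scaffold of paraspeckles, nuclear bodies that form on it while it is transcribed and that hold RNA-binding proteins such as SFPQ and NONO. Malat1 RNA is among the most abundant noncoding RNAs of mammalian cells and gathers in nuclear speckles, which store splicing factors. In myeloid cells Neat1 is known for a link to inflammasome assembly and to antiviral responses, and Malat1 for a link to NF-kB signalling.

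The genes are neighbours on the minus strand of mouse chromosome 19 (GRCm38, mm10). Neat1 (ENSMUSG00000092274) lies at chr19:5824708-5845478 and Malat1 (ENSMUSG00000092341) at chr19:5795690-5802672, with 22035 bases between them. Each has 4 annotated transcripts, of which the longest is a single exon that spans the gene, 20771 bases for Neat1 and 6983 bases for Malat1. A short form of Neat1 of 3004 bases begins near the same start and lies inside the long form, so a count per gene cannot tell the short and the long form apart.

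The 3′ ends are shown because they are what the transcripts share in sequence, and because they set these RNAs apart from ordinary messenger RNAs. As background, both long transcripts end at a stretch rich in A that is encoded in the genome, and that folds back on stretches rich in U to form a triple helix. RNase P makes that end by cutting in front of a tRNA-like RNA, so these ends do not need a poly(A) tail. The annotated short form of Neat1 ends elsewhere, at an early poly(A) site. The 90 bases that end at the A-rich motif are given from the GENCODE M21 transcripts, 5′ to 3′ with T for U. The capitals mark the motif TTTTGCTTTT and its reverse complement AAAAGCAAAA. The coordinates are chr19:5795982-5796071 for Malat1 and chr19:5824708-5824797 for Neat1, both on the minus strand.
Malat1: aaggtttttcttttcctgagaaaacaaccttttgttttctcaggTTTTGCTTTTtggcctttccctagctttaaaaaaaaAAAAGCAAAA
Neat1: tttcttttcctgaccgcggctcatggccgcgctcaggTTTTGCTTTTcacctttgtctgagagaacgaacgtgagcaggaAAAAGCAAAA

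The last 10 bases of Neat1 and their reverse complement are 1 motif read on both strands, and each was found once in each of the 2 long transcripts. They were 26 bases apart in Malat1 and 33 bases apart in Neat1. In Neat1 the annotated transcript stops at the A-rich motif, whereas in Malat1 another 292 bases are annotated after it. Among 5427 lincRNA genes with a transcript of at least 400 bases, 12 (0.221%) held TTTTGCTTTT in the last 400 bases of the longest one and 19 (0.350%) held AAAAGCAAAA. Both were held by 2 genes, Malat1 and Neat1. The motif was taken from the last 10 bases of the long Neat1 transcript, so its presence there is given by the choice.

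The tRNA-like stretches follow directly. The next 56 bases after the Malat1 motif (chr19:5795926-5795981) and the 56 bases of Gm27702, a gene annotated as a small RNA directly after Neat1 (chr19:5824652-5824707), are given on the minus strand, with their longest shared run of 9 bases in capitals.
After Malat1: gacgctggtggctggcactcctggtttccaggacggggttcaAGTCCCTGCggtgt
After Neat1 (Gm27702): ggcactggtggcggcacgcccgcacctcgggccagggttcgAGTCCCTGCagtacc

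Gm27702 had 46 counts in each library, under the minimum of 50 used below for ratios. The bases after the Malat1 motif are annotated as part of Malat1 and have no count of their own.

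The LPS library held 1130679 Malat1 counts and the LPS+LCC-12 library 967748. These were 2.23% of all counts (exact binomial 95% interval 2.23 to 2.24) and 2.03% (2.02 to 2.03). By raw counts it ranked 4 among all genes under LPS alone and 5 with LCC-12 added. Scaled to counts per 1000000 (CPM) with edgeR's TMM factors, the Malat1 level was 22640 and 20007. The log2 ratio of LPS+LCC-12 over LPS was -0.18, with an exact interval for counting error of -0.18 to -0.17. This is a level 0.884 times that of the LPS library, a small difference with the LPS library higher.

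For Neat1 the counts were 136040 in the LPS library and 110727 in the other. These were 0.269% of all counts (0.267 to 0.270) and 0.232% (0.231 to 0.233), with ranks of 19 and 23. The Neat1 level was 2724 and 2289 CPM, a log2 ratio of -0.25 (-0.26 to -0.24) or 0.840 times the LPS level. Both genes were thus lower with LCC-12 and both stayed within 2-fold. Counting error is small at this depth, but the variation between pools of mice was not measured, so differences of this size cannot be set against it.

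Differences are called higher or lower below from 2-fold upward, for genes whose better covered library reached 50 counts. Of 13482 genes with that many counts, 6.65% were lower and 4.01% were higher, and neither Neat1 nor Malat1 was among them. The median log2 ratio of these genes was 0.02. Of the same genes, 26.2% had a lower ratio than Neat1 and 31.3% a lower ratio than Malat1. A ratio nearer to 0 than that of Neat1 was seen for 47.8% of the genes, and for 35.7% in the case of Malat1.

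**Figure D1:**
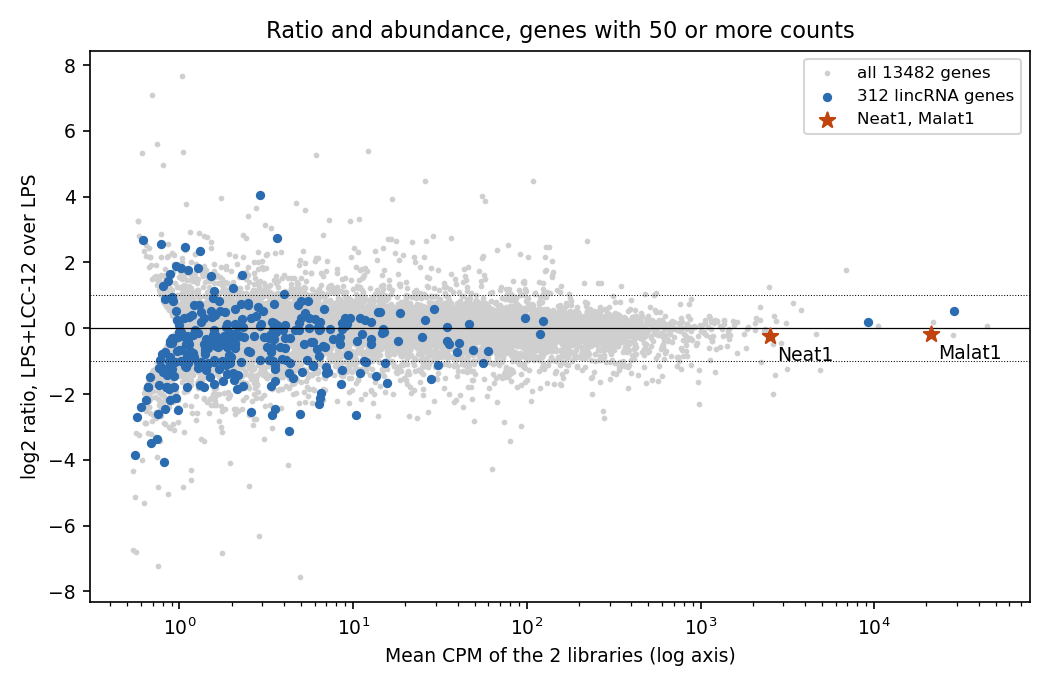
Log2 ratio of LPS+LCC-12 over LPS (vertical axis) against the mean CPM of the 2 libraries (horizontal log axis) for 13482 genes that reached 50 counts in either library. Blue points are 312 lincRNA genes, stars are Neat1 and Malat1, and dotted lines mark 2-fold; both stars lie slightly below 0, at -0.25 and -0.18.

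The ratio of Neat1 to Malat1 within a library needs no scaling between libraries. Neat1 had 0.120 counts for each Malat1 count with LPS (0.1196 to 0.1210) and 0.114 with LPS+LCC-12 (0.1137 to 0.1151). Per kb of merged exon, the level of Malat1 was 24.7 times that of Neat1 with LPS and 26.0 times with LPS+LCC-12. The length used for Neat1 is the 20771 bases of the long form. Reads from its short form of 3004 bases would be divided by too long a length, so these multiples may be too large. By counts, the share of Neat1 against Malat1 was 4.90% lower with LCC-12, and the counting intervals of the 2 libraries did not overlap. At this depth such intervals are narrow. They leave out variation between pools of mice, which was not measured, so the lack of overlap does not show an effect of LCC-12. Together the pair took 2.50% of the LPS library and 2.26% of the other. With 10 ng of RNA used for each library and 102283 and 66967 cells sorted, fewer cells of a type and less RNA per cell cannot be told apart.

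GENCODE places both genes in the class lincRNA, long intergenic noncoding RNA. Of 312 lincRNA genes with 50 or more counts, 88 (28.2%) were at least 2-fold lower and 18 (5.77%) at least 2-fold higher, and their median log2 ratio was -0.42. Neat1 and Malat1 were lower than the LPS library by less than that median. A lower ratio than that of Neat1 was seen for 185 lincRNA genes, and a higher one for 126. For Malat1 the numbers were 197 and 114. Split by mean count, after seeing the data, 216 lincRNA genes under 200 counts had a median of -0.46, 75 genes from 200 to under 1000 counts -0.33, and 21 genes of 1000 or more counts -0.25. In the last class 3 genes were at least 2-fold lower and none was at least 2-fold higher, and without Neat1 and Malat1 the median of its other 19 genes was -0.26. Neat1 was itself the middle gene of the 21 by ratio.

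Besides this pair, the lincRNA genes with more counts than Neat1 were Gm26917 and Gm42418 on chromosome 17. Gm26917 had 1182212 and 1654834 counts and a log2 ratio of 0.53. Gm42418 had 427352 and 476155 counts and a ratio of 0.20, and 1245 of its bases overlap Rn18s-rs5, a ribosomal RNA pseudogene in RefSeq. Gm26917 lies near the same pseudogene, with 0 bases of overlap. All lincRNA genes together held 5.91% of the LPS library and 6.91% of the other, a higher share with LCC-12. Leaving out Gm26917, Gm42418, Neat1 and Malat1, the direction turned, with 0.227% and 0.186%. Neat1 and Malat1 were themselves lower with LCC-12, so the turn came with Gm26917 and Gm42418. Protein-coding genes had a median log2 ratio of 0.05, with 4.46% lower and 3.81% higher. Genes with single-exon transcripts only, 1611 in all, had a median of -0.11, with 11% lower and 4.47% higher. Antisense genes had -0.45 with 29% lower and 4.83% higher, and genes classed as processed transcripts -0.19 with 18% lower and 6.59% higher. Small RNA classes differed in turn, with a median of 0.05 for small nucleolar RNA genes (2.99% lower, 0% higher) and -0.20 for small nuclear RNA genes (9.68% lower, 6.45% higher).

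A list of other nuclear and noncoding RNA genes was set beside the pair. Of its 41 entries 38 matched a gene and 26 had 50 or more counts. Among these 1 was at least 2-fold higher and none was at least 2-fold lower, beside 4.01% and 6.65% of all genes. The median log2 ratio of the 26 was 0.08, with 4 of 26 below Neat1 and 7 of 26 below Malat1. The one past 2-fold was Trp53cor1, known as lincRNA-p21, with 49 and 105 counts (log2 ratio 1.14, 0.64 to 1.67).

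Rn7sk, the 7SK RNA that holds the elongation factor P-TEFb inactive, had 151556 and 106048 counts. Its log2 ratio was -0.47 (-0.48 to -0.46), lower than those of Neat1 and Malat1. Tug1 had 3815 and 3579 counts (-0.05, -0.11 to 0.02), a difference within counting error. Kcnq1ot1, which silences an imprinted cluster on its own chromosome, had 3951 and 3945 counts (0.04, -0.02 to 0.11), also within counting error. Lncpint and Pvt1 had ratios of -0.45 and -0.58. The list held 9 matched small nucleolar host genes of the Snhg series, and 8 of them had 50 or more counts. All 8 had ratios above 0, from 0.05 to 0.51, and the intervals of 4 of the 8 included 0. Snhg genes outside the list are not included here. The long noncoding RNAs named here therefore had ratios on both sides of 0, and the pair did not move with all of them.

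Per kb of merged exon, the order of levels was the same at the top in both libraries. For Neat1 the length is that of the long form, so any reads of the short form make its level per kb too low. Rn7sk had 9168 and 6624 CPM per kb, Malat1 3242 and 2865, and Neat1 131 and 110. The next in the list, 2900097C17Rik, had 23.2 and 26.9 CPM per kb. The gaps between these neighbours in the order were larger than the difference between the libraries for any of them. The others lay closer together, and some changed places between the libraries: Dleu2 had 10.9 and 9.53 CPM per kb, Gas5 9.50 and 10.4, and Tug1 7.85 and 7.60. The genes of the RNase MRP and telomerase RNAs, Rmrp and Terc, had 0 counts in both libraries, and Rpph1, the RNA of RNase P, had 4 and 2. At a count of 0, up to 3 counts per library would still be allowed by counting error alone. Genes annotated as ribozymes, the class of Rmrp and Rpph1, held 4308 and 2406 counts in all. How reads that fit several genes were counted is not given, so the low counts of Rmrp, Terc and Rpph1 cannot be read as absence of RNA.

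**Figure D2:**
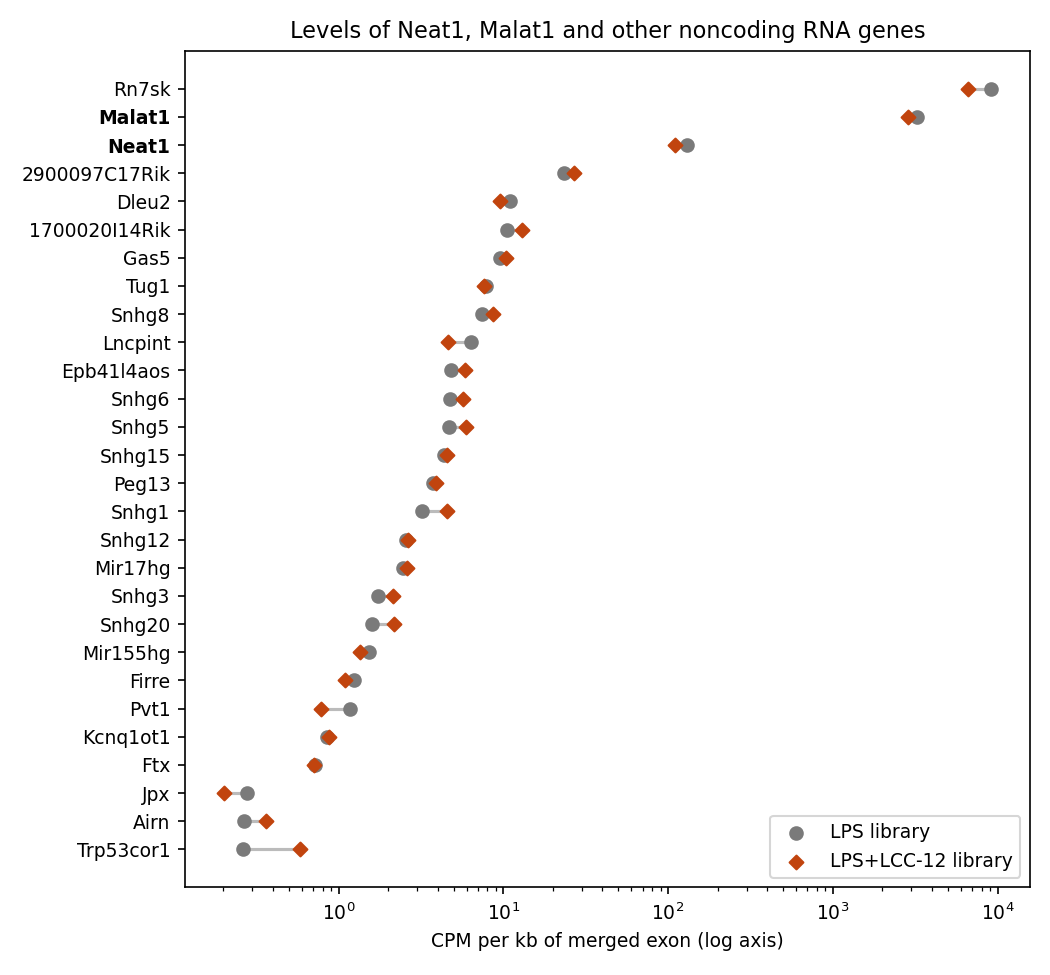
Level of Neat1, Malat1 and the 26 listed noncoding RNA genes with 50 or more counts, as CPM per kb of merged exon on a log axis, in the LPS library (grey circles) and the LPS+LCC-12 library (orange diamonds). Malat1 (3242 and 2865) and Neat1 (131 and 110) lie below Rn7sk and above the other genes, with the LPS library slightly to the right for all 3.

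Paraspeckle proteins bind Neat1 or gather on it. Of 39 listed genes 37 had 50 or more counts, with a median log2 ratio of 0.11. Of these 1 was at least 2-fold higher and 1 at least 2-fold lower, beside 4.01% and 6.65% of all genes. The ratio was lower than that of Neat1 for 1 of the 37. The one that was higher, Rbm3, an RNA-binding protein induced by cold, had 3031 and 5932 counts (log2 ratio 1.01, 0.95 to 1.08). The one that was lower, Aff2, had 65 and 15 counts (-2.03, -2.99 to -1.24).

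The proteins that paraspeckles are built on had ratios near or slightly above 0. Sfpq had 12063 and 14399 counts (log2 ratio 0.30, 0.27 to 0.34). Nono, its partner, had 7658 and 7652 counts (0.04, with an interval that includes 0), within counting error, and Pspc1, the third of that family, had 1958 and 2255 counts (0.25, 0.16 to 0.34). Rbm14, which helps to assemble the bodies, had a ratio of 0.49. None of these 4 genes had a ratio as low as that of Neat1.

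The choice between the short and the long form of Neat1 is known to depend on cleavage at an early poly(A) site, which Cpsf6 and Nudt21 promote and Hnrnpk opposes. Nudt21 had 982 and 1221 counts (log2 ratio 0.36, 0.24 to 0.48). Cpsf6 had 3825 and 4830 counts (0.38, 0.32 to 0.44). Hnrnpk had 20699 and 22169 counts (0.15, 0.12 to 0.17). All 3 were slightly higher with LCC-12 and within 2-fold, and the forms themselves were not measured.

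Nuclear speckle and SR proteins share the bodies in which Malat1 gathers. All 41 listed genes had 50 or more counts and all were within 2-fold, beside 4.01% higher and 6.65% lower among all genes. Ratios of the 41 ran from -0.27 to 0.25, with a median of 0.04. Their ratio was lower than that of Malat1 for 1 of 41. The speckle scaffolds Son and Srrm2 had ratios of -0.06 and 0.12, and the splicing factors Srsf1 and Srsf2 had 0.15 and 0.25. These genes had 34522 and 42290 counts for Son and Srrm2 with LCC-12, and 8377 and 8090 for Srsf1 and Srsf2.

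A broader list of 26 genes on these 3′ ends and on nuclear RNA handling was set beside the pair. It held RNase P subunits, enzymes of tRNA ends and Mettl16, and also m6A writer and reader genes such as Mettl3 and Ythdc1, nuclear exosome genes and their adaptors, Pabpn1 and Srrt. Of these 24 had 50 or more counts and all 24 were within 2-fold, beside 4.01% higher and 6.65% lower among all genes. Ratios were above 0 for 12 and below 0 for 12. Elac2, the nuclease that trims the tRNA-like RNAs after RNase P, had 1406 and 1355 counts (log2 ratio -0.01, -0.12 to 0.10). Mettl16, a methyltransferase that binds the Malat1 triple helix, had 1306 and 1340 counts (0.08, -0.03 to 0.19). Both were within counting error. The members with most counts by the mean of both libraries, Zfc3h1 and Srrt, had ratios of -0.03 and 0.07.

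Neat1 is known as a target of p53, of heat shock factor 1 and of hypoxia-inducible factors. Of 26 such target genes with 50 or more counts, 2 were at least 2-fold higher and 1 at least 2-fold lower. Of all genes with that many counts, 4.01% were higher and 6.65% lower. The median log2 ratio of the 26 genes was -0.13. The heat shock genes Hspa1a and Hspa1b, near-identical copies that can share reads, were 2.30-fold and 2.16-fold higher. Trp53inp1, a p53 target, was lower with 7107 and 2072 counts, at 0.301 times the LPS level. Genes of these programs thus lay on both sides of Neat1, with 11 of 26 below it.

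Inflammasome genes had a median log2 ratio of -0.26 over 13 genes, close to the ratio of Neat1, and 7 of 13 were below it. Mefv, which encodes pyrin, was at least 2-fold lower, with 10646 and 5016 counts (-1.04, -1.09 to -0.99), and none was at least 2-fold higher. Of all genes with 50 or more counts, 6.65% were lower and 4.01% higher. Interferon-stimulated genes lay much lower, with a median of -1.36 over 30 genes and 21 of 30 at least 2-fold lower. All 30 had lower ratios than Neat1 and Malat1. The lowest was Ifit3, at -3.44.

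**Figure D3:**
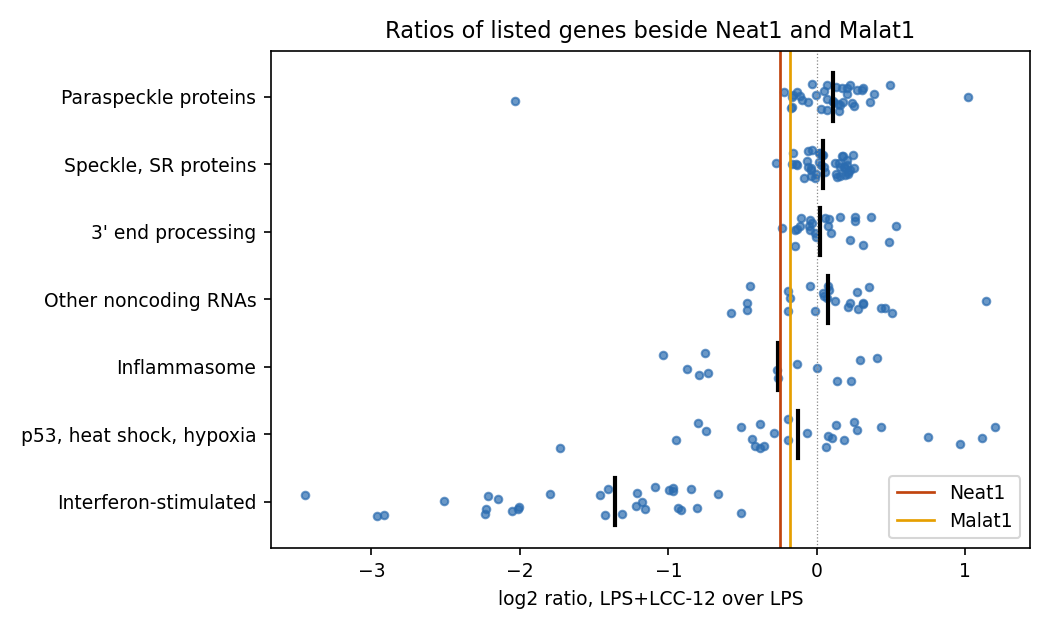
Log2 ratio of LPS+LCC-12 over LPS for listed genes with 50 or more counts, 1 point per gene (jittered vertically), with a black bar at each list's median and vertical lines at Neat1 (-0.25) and Malat1 (-0.18). All 30 interferon-stimulated genes lie left of both lines, whereas 40 of 41 speckle and SR protein genes lie right of the Malat1 line.

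The gene closest in ratio to Neat1, among 43 genes whose mean CPM was within 2-fold of its own, was Pkm, a glycolytic pyruvate kinase, with 73170 and 59809 counts and a log2 ratio of -0.24. Itgam and Adgre5, surface receptors of myeloid cells, had -0.21 and -0.20, Samhd1, a restriction factor of viruses, had -0.31, and Iqgap1, a cytoskeletal scaffold, had -0.18. Of the 43 genes 12 had a lower ratio than Neat1 and their median was -0.02. Only 3 genes were within 2-fold of the level of Malat1. They were Gm23935, annotated as a miRNA gene, at -0.19, the mitochondrial ribosomal RNA gene mt-Rnr1 at 0.20, and Gm26917. Likeness here rests on 2 libraries, that is, on a single ratio per gene.

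The genomic neighbours of the pair did not share its ratio as a group. Within 200 kb, 35 other genes are annotated and 19 of them had 50 or more counts, with a median log2 ratio of 0.04. Of these 1 was at least 2-fold higher and 2 were at least 2-fold lower, beside 4.01% and 6.65% of all genes. Ltbp3, which encodes a TGF-beta binding protein, was the one that was higher, with 247 and 842 counts (log2 ratio 1.81, 1.61 to 2.03).

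On the other side, Frmd8os, an antisense gene that starts 144 bases beyond the annotated start of Neat1 on the opposite strand, had 53 and 25 counts (log2 ratio -1.02, -1.79 to -0.33). The protein-coding gene Tigd3 had 82 and 32 counts (-1.30, -1.95 to -0.71). Frmd8, also on this side, had a ratio of 0.12. Rela, which encodes the p65 subunit of NF-kB, lies on the side of Ltbp3 and had a ratio of 0.01. The 2 genes that were lower had fewer than 100 counts in each library, and their intervals were wide.

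Several small annotated genes lie inside the pair. Gm27533, Gm27505 and Gm28006 overlap Neat1 on the same strand, and Gm27694 overlaps Malat1. All 4 had 0 counts in both libraries. How reads shared by overlapping genes were counted is not given, so these counts cannot be read as absence of RNA. The counts of Neat1 and Malat1 may lack such shared reads as well. Gm37376 lies on the opposite strand within Malat1 and had 507 and 346 counts (log2 ratio -0.50, -0.71 to -0.31). Whether strand was used in the counting is not given in the sources used here, so the reads of Gm37376 and Malat1 cannot be told apart with certainty.

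**Figure D4:**
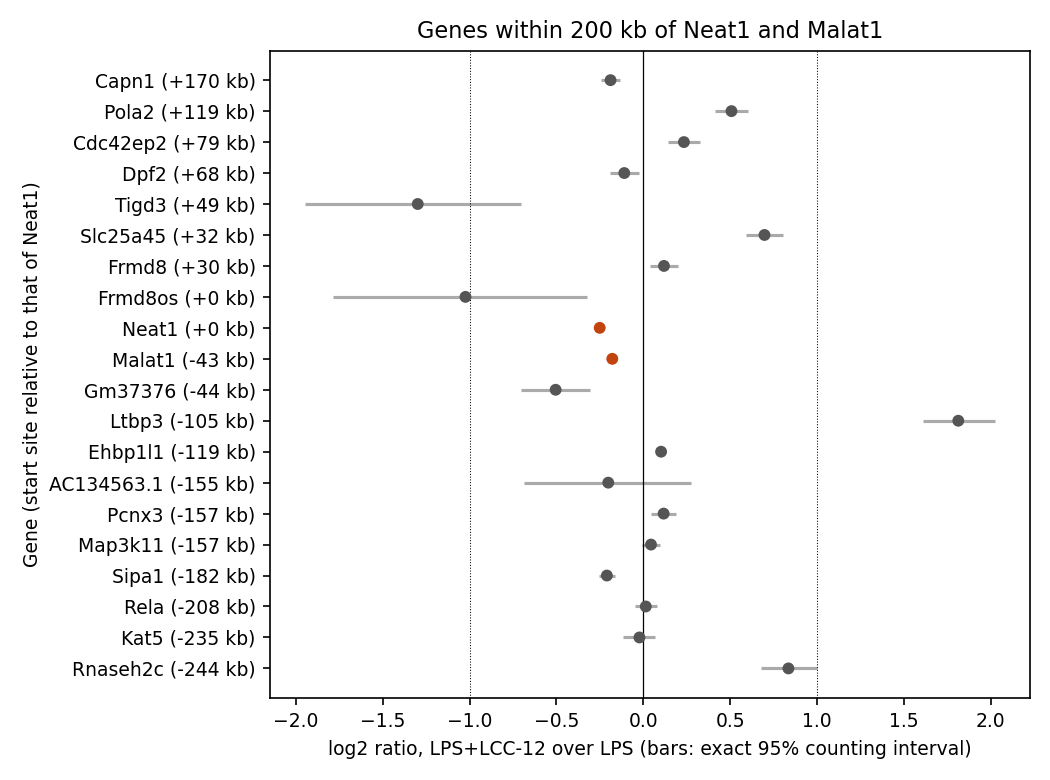
Log2 ratio of LPS+LCC-12 over LPS (horizontal axis, bars for the exact 95% counting interval) for Neat1, Malat1 and other genes within 200 kb that had 50 or more counts (1 of the 19 is not shown), ordered by the distance of the start site from that of Neat1. Neat1 and Malat1 (orange) lie at -0.25 and -0.18, Ltbp3 lies at 1.81, and Frmd8os and Tigd3 lie below -1.

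Markers of the sorted cells and of other cells differed between the libraries. For comparison, 4.01% of all genes with 50 or more counts were higher and 6.65% lower. All 11 general macrophage markers were within 2-fold. Of 14 markers that small peritoneal or monocyte-derived macrophages carry, 11 were 2-fold or more higher, and their summed level was 1056 CPM with LPS and 1924 with LPS+LCC-12. Markers of large peritoneal macrophages were present in both libraries and were higher for 9 of 15, with sums of 4531 and 12833 CPM. Most of those sums was Fn1, which encodes fibronectin, at 3114 and 10656 CPM. Without it (a check chosen after seeing the data, as are those of single genes below) they were 1417 and 2177 CPM, a 1.54-fold in place of a 2.83-fold difference. What remains includes Adgre1, also listed as a general macrophage marker, at 839 and 825 CPM. Cd5l was 22.2-fold and Timd4 16.4-fold higher, and 3 of the 15 markers had ratios below 0. Neutrophil markers were at least 2-fold lower for 10 of 15, with sums of 13866 and 5525 CPM, and none was at 0. Monocyte markers were lower for 5 of 9 (sums 6130 and 3870) and mast cell markers for 5 of 7 (215 and 69.4). Mesothelial markers were lower for 4 of 4 (8.19 and 1.41, with Wt1 and Lrrn4 at 0 with LCC-12) and fibroblast markers for 4 of 5 (22.2 and 3.68, with Lum and Dpt at 0 in both libraries and Pdgfra at 0 with LCC-12). Without Col6a3, a collagen gene, the fibroblast sums were 12.4 and 3.64 CPM. B cell markers were within 2-fold for all 10 (205 and 243). T cell, NK cell, platelet and erythroid markers had 2, 2, 4 and 0 genes with 50 or more counts, and sums of at most 145 CPM. The platelet sums were 69.6 and 145 CPM, and 15.7 and 6.70 CPM without Pf4, so that their direction rested on that gene. Neat1 and Malat1 are made by many cell types, and the part of this shift in their ratios was not tested.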

How the data were processed

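The deposited table holds raw counts per gene from 1 library per group. Per the submitters' processing notes, STAR was used with build mm10. Neither its version nor the counting tool, strand setting or annotation is given in the labels or headers read here. Per the labels' protocols, libraries were made from 10 ng of total RNA with a stranded low-input kit, ribosomal depletion and 12 PCR cycles, which retains RNA without poly(A) tails, although the molecule field names polyA RNA. The library totals were 50618409 (LPS) and 47721888 (LPS+LCC-12) counts. Column names match library codes in the sample labels.

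IDs were matched to GENCODE M21 (GRCm38), 55394 of 55487. Scaling used TMM factors (edgeR 4.0.16, R 4.3.3). An average of 0.5 counts, weighted by scaled library size, was added before taking log2 ratios of LPS+LCC-12 over LPS. Ratios have exact 95% Clopper-Pearson intervals from the split of the counts (SciPy 1.17.1). These cover counting error only, because each group is 1 library. PCR copies are not independent molecules, so the intervals may be too narrow even for counting error. The ratio and 2-fold rule were tried on simulated data with counting error only and planted changes larger than those of the pair. This cannot show how they perform with variation between pools or for differences as small as those of the pair. Alternatives were 6 other scalings, including DESeq2 1.42.0 median of ratios, other count minimums, fold limits and added counts.

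The members and lists (7 pathway and 13 marker lists, 344 of 348 entries matched) were chosen with earlier results of these data known. Named genes were the members, 18 genes always taken, up to 4 list members past 2-fold with the largest ratios (or the 2 with most counts), nearest, overlapping or 2-fold neighbours, and the 5 genes nearest in ratio. Marker genes were summarised as lists; some genes the rule takes are not reported here. Genes outside the rule (Tug1, Dleu2, Gas5, Lncpint, Pvt1, the Snhg genes, Terc, 2900097C17Rik, Gm42418, Gm27702, Frmd8, Rela, Actb, Mettl3, Ythdc1, Pabpn1, Adgre1, Wt1, Lrrn4, Lum, Dpt, Pdgfra) were named after their values were seen.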

Additional observations from a re-analysis of the deposited data

How the results depend on the processing

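Neat1 and Malat1 were lower with LCC-12 and within 2-fold under all 6 other scalings. Their log2 ratios were -0.21 and -0.14 with total counts, -0.27 and -0.20 with DESeq2 median of ratios, -0.28 and -0.21 with the upper quartile, -0.19 and -0.12 with totals that leave out mitochondrial genes and the 100 most abundant ones, -0.19 and -0.12 with protein-coding totals, and -0.22 and -0.14 with totals without the pair. Adding 5 counts changed neither. Relative to other RNAs (a choice made after seeing the data), the direction turned against Rn7sk, with ratios of 0.22 for Neat1 and 0.29 for Malat1. It was kept against Tug1 (-0.20 and -0.13), Kcnq1ot1 (-0.29 and -0.22), the messenger RNA gene Actb (-0.32 and -0.25), and for Neat1 against Malat1 (-0.073). The Neat1 to Malat1 ratio of 0.120 and 0.114 became 0.0404 and 0.0385 per kb. The medians of speckle and inflammasome genes were 0.10 and -0.20 with totals without the most abundant genes, and 0.10 and -0.20 with protein-coding totals. The median of the 3′ end processing list ran from -0.01 to 0.08 over the settings tried and so has no direction. Genes at least 2-fold higher and lower numbered 540 and 896. They numbered 4143 and 6439 with a minimum of 1 count, 1462 and 2387 with 10, 298 and 438 with 200, 1304 and 1794 at 1.5-fold and 195 and 340 at 3-fold. No named gene past 2-fold changed direction under another scaling or with 5 added counts. No paired analysis was possible because each group has 1 library. Depth limits the small genes of the locus, such as Frmd8os. For the pair counting error is small, and variation between pools was not measured.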
